A study of Mus musculus with 15 samples.

Results

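The 9 genes described here encode the enzymes that lead from acetyl-CoA to squalene epoxide in the mevalonate pathway, and they were measured in the liver of mice under 3 feeding regimens. They were chosen by name (Acat2, Hmgcs1, Mvk, Pmvk, Mvd, Idi1, Fdps, Fdft1 and Sqle), and all 9 were found among the 35275 genes of the count table and passed the filter on low counts. The choice was made with earlier results of these data known. The counts and medians of the 9 that are set against all genes tested are therefore a description, not a test of the set. The libraries are poly(A) RNA-seq of the left lateral liver lobe of C57BL/6 mice that began a regimen at 3 months of age, stayed on it for 3 months and were 6 months old when it ended. 5 libraries came from mice fed ad libitum (AL), 5 from mice under intermittent fasting of 16 h (IF16) and 5 from mice under fasting of 24 h, every other day (EOD). No genotype or other treatment is named for any group, and the labels give neither the sex of the mice nor the time between the last meal and tissue collection. Library totals ran from 28129883 to 38147534 counts. Nothing in the labels ties each library to a mouse of its own, so the p-values measure the spread among libraries only, and that spread may be technical.

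The mevalonate pathway builds the isoprenoid units from which cells make cholesterol, and the liver is a main site of that synthesis. Acetyl-CoA is condensed to HMG-CoA, reduced to mevalonate, phosphorylated and decarboxylated to isopentenyl diphosphate, and joined into farnesyl diphosphate, from which squalene is made and then epoxidised. The genes are known targets of the sterol-responsive factor SREBP2, which is released to the nucleus when membrane sterols are low and which acts on promoters together with the factors NF-Y and Sp1.

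Promoter windows of 300 bases (250 before to 50 after the start site) were at hand for 6 of the 9 genes (Acat2, Hmgcs1, Mvk, Pmvk, Mvd and Idi1) from RefSeq on build GRCm38.p6. They were searched on both strands for a sterol regulatory element (TCACNCCAC), an NF-Y box (CCAAT), a GC box of the Sp1 type (GGGCGG) and an E-box (CACGTG). The 3 windows shown are that of Hmgcs1, the only one of the 6 with an exact sterol element, that of Mvk, which it shares with a neighbour of opposite orientation, and that of Mvd, whose transcript fell furthest under IF16. They lie at chr13:119690101-119690400 on the plus strand, chr5:114444019-114444318 on the plus strand and chr8:122443373-122443672 on the minus strand. Capitals mark matches to any of the 4 motifs on either strand.
Hmgcs1: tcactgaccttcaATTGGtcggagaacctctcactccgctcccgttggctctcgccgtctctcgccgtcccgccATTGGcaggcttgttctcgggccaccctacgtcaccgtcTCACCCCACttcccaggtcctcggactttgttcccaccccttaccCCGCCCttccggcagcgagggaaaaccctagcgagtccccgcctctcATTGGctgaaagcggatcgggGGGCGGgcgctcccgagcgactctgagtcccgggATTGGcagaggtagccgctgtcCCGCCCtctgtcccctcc
Mvk: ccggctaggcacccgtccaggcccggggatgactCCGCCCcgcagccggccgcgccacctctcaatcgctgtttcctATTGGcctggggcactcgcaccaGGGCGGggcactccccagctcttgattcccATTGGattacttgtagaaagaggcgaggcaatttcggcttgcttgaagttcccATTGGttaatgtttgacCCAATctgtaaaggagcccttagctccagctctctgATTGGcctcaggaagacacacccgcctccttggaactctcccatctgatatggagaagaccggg
Mvd: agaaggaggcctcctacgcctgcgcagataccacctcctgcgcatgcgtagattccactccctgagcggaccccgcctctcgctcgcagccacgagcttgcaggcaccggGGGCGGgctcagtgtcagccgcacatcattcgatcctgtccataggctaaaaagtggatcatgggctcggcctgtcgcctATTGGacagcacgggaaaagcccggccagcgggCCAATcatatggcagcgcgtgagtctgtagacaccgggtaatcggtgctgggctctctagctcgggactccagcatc
The sterol element of Hmgcs1 began 137 bases before the start site, and an exact match was found in 1.24% of all 32851 promoter windows of this length. CCAAT was found in 5 of the 6 genes, all except Acat2, against 37.4% of all windows. The Mvk window held 5 copies of it, that of Hmgcs1 4, those of Mvd and Idi1 2 each and 1 of the 2 windows of Pmvk 1. That Pmvk window, chr3:89454291-89454590, lies upstream of the gene start in the count table (89459118). The other, chr3:89459321-89459620, held no exact match to any of the 4 motifs. The members are counted per gene and the shares per window, so Pmvk could match in either of its 2 windows. GGGCGG was found in 5 of the 6 genes, all except Pmvk, against 35.7% of all windows. CACGTG was found in 0 of the 6, against 7.15% of all windows. With 1 mismatch allowed, the sterol element matched in 2 of the 6 genes (Acat2 and Hmgcs1) and in 24.2% of all windows.

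Some features of the libraries bear on the results below. AL replicates 4 and 5 stood apart in acute phase transcripts. The summed level of 6 such genes was 15636 and 27382 CPM (counts relative to the TMM-scaled library total) in those libraries and 2734 to 4397 CPM in the other 13 libraries. Hepatocyte markers (8 genes, among them Alb, Cps1 and Ahsg) summed to 92054 to 110270 CPM in AL, 112245 to 137300 in IF16 and 102995 to 126700 in EOD. Sinusoidal endothelial markers (6 genes) summed to 75.1 to 131 CPM in AL, 160 to 192 in IF16 and 170 to 216 in EOD. Stellate cell markers (6 genes) summed to 106 to 172 CPM in AL, 127 to 174 in IF16 and 167 to 248.8 in EOD. Of the markers found in the table, none of hepatocytes, endothelium, Kupffer cells, stellate cells, bile duct cells, neutrophils, lymphocytes or red cells was at 0 in all 15 libraries. Mitochondrially encoded transcripts took 10.01% to 15.1% of the counts in AL, 8.98% to 11.5% in IF16 and 5.34% to 10.1% in EOD, the last value in EOD replicate 5. The part of these differences in the changes of the 9 genes was not tested. In bulk tissue, fewer cells of a type and less RNA per cell cannot be told apart.

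Per length, the pathway was led by a few of its enzymes. In AL, Fdps, the synthase that joins isoprenoid units to farnesyl diphosphate, had the highest level at 265 FPKM (SD 32.9, n = 5; fragments scaled by transcript length and library total, as deposited). Hmgcs1, which makes HMG-CoA, followed at 102 FPKM (SD 15.2) and Fdft1, the squalene synthase, at 47.1 FPKM (SD 2.52). Each of these 3 lay above the next gene in all 5 AL libraries with no overlap of their ranges. Acat2, the thiolase that starts the pathway, was at 31.0 FPKM (SD 5.52), Pmvk, phosphomevalonate kinase, at 24.3 (SD 3.96) and Mvd, the decarboxylase that yields isopentenyl diphosphate, at 19.8 (SD 6.64). Sqle, the squalene epoxidase, was at 11.9 FPKM (SD 3.77), Mvk, mevalonate kinase, at 7.88 (SD 0.964) and Idi1, the isomerase of isopentenyl diphosphate, at 4.31 (SD 1.72). From Acat2 downwards, the ranges of neighbours in this order overlapped.

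The summed level of the 9 transcripts was 513 FPKM in AL (SD 26.7, n = 5), 203 FPKM in IF16 (SD 54.8) and 84.6 FPKM in EOD (SD 17.5). The 3 groups did not overlap: the sums spanned 476 to 549 FPKM for AL, 129 to 280 for IF16 and 67.5 to 110 for EOD. Fdps weighs most in the sum in AL and IF16, so this separation need not hold for the other genes. Between IF16 and EOD, only Mvd and Fdps did not overlap when each gene was taken singly in CPM. The make-up of this sum differed as well. Fdps supplied 51.5% of it in AL (SD 4.95), 47.2% in IF16 (SD 6.85) and 21.6% in EOD (SD 1.43). Its shares in AL (46.8% to 57.5%) and IF16 (37.5% to 54.9%) overlapped, and the highest AL shares were those of replicates 4 and 5 (56.2% and 57.5%). Fdft1 supplied 9.20% in AL, 13.0% in IF16 and 20.3% in EOD, Acat2 6.05%, 9.03% and 13.8%, and Pmvk 4.73%, 7.84% and 12.3%. In EOD, Hmgcs1 (21.8 FPKM, SD 3.26) lay above Fdps (18.3 FPKM, SD 4.36) in all 5 libraries, the reverse of the order in AL and IF16. The ratio of Fdps to Hmgcs1 in FPKM was 1.96 to 3.42 in AL, 1.41 to 5.39 in IF16 and 0.756 to 0.965 in EOD, so that the EOD libraries lay below every other library. These shares and ratios are descriptions without a test.

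**Figure D1:**
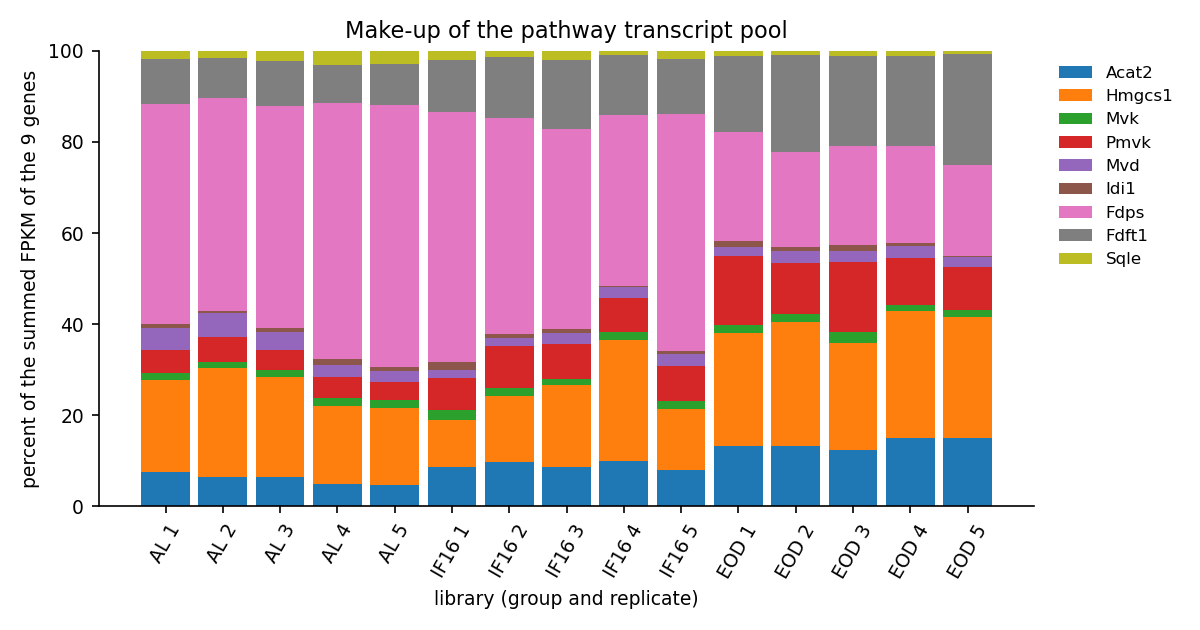
Stacked bars give, for each of the 15 libraries (x axis, group and replicate), the percent of the summed FPKM of the 9 genes that each gene supplied (y axis, 0 to 100%). Fdps takes 46.8% to 57.5% of the AL bars and 20.1% to 23.9% of the EOD bars, while Acat2, Pmvk and Fdft1 take larger shares in EOD.

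The first comparison asked how 16-h fasting changed these transcripts. 7 of the 9 fell and none rose, with Mvd, Sqle, Hmgcs1 and Fdps lowest relative to AL, and Pmvk and Idi1 did not pass the test. Over all 13837 genes tested, 3.5% passed in this comparison, 2.1% as lower and 1.4% as higher (edgeR quasi-likelihood test, Benjamini-Hochberg adjusted p under 0.05). The median log2 fold change was -1.17 over the 9 genes and -0.00048 over all genes tested. In 8 of the 9, all but Idi1, every IF16 library lay below every AL library, against 3.19% of all genes tested, and in none did every IF16 library lie above, against 2.59%.

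At the entry of the pathway, Hmgcs1 was measured at 319, 395, 340, 308 and 283 CPM in AL replicates 1 to 5 and at 86.9, 99.4, 112, 113 and 92.8 CPM in IF16 replicates 1 to 5. The groups were far apart and each was narrow, and the log2 fold change of -1.71 (SE 0.13, edgeR adjusted p = 2.19e-06) had the smallest p of the 9 genes. Acat2 ran from 55.9 to 82.5 CPM in AL and from 29.2 to 52.0 CPM in IF16, a decrease of 1.70 fold (log2 SE 0.15, edgeR adjusted p = 0.00851).

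The steps from mevalonate to isopentenyl diphosphate differed among themselves. Mvk was at 17.0, 14.95, 19.1, 21.3 and 21.4 CPM in AL and at 13.4, 8.79, 6.02, 5.42 and 7.97 CPM in IF16, with IF16 replicate 1 close to the lowest AL library. Its log2 fold change was -1.17 (SE 0.27, edgeR adjusted p = 0.0225). The call ended without IF16 replicate 2, 3 or 5 (adjusted p = 0.0512, 0.0661 and 0.0613) and without AL replicates 4 and 5 together (0.0974). Pmvk ran from 24.4 to 33.9 CPM in AL and from 11.7 to 23.3 CPM in IF16, with a log2 fold change of -0.61 that did not pass (SE 0.25, edgeR adjusted p = 0.203). Mvd was at 41.5, 48.2, 33.9, 25.6 and 22.8 CPM in AL and at 8.32, 6.53, 8.15, 5.58 and 9.91 CPM in IF16. All IF16 libraries were low, the 2 lowest AL libraries were replicates 4 and 5, and the decrease was 4.47 fold (log2 SE 0.22, edgeR adjusted p = 9.11e-05).

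The isomerase Idi1 and the synthase Fdps, which act next, differed in spread. It was at 12.3, 6.35, 10.9, 21.0 and 14.8 CPM in AL and at 13.7, 5.56, 5.33, 1.04 and 3.73 CPM in IF16, where the highest library was 13.1 times the lowest. IF16 replicate 1 lay within the AL range, and the log2 fold change of -1.16 did not pass (SE 0.62, edgeR adjusted p = 0.341). Fdps was at 293, 297, 291, 388 and 372 CPM in AL and at 180, 125, 105, 61.0 and 138 CPM in IF16. Every IF16 library lay below the lowest AL library, at a decrease of 2.70 fold (log2 SE 0.23, edgeR adjusted p = 0.00331).

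The 2 enzymes that make squalene and its epoxide also fell. Fdft1 was nearly constant in AL, from 126 to 140 CPM, and ran from 49.3 to 86.3 CPM in IF16, a decrease of 1.80 fold (log2 SE 0.15, edgeR adjusted p = 0.00461). Sqle was at 37.3, 37.1, 47.5, 76.7 and 68.2 CPM in AL and at 23.5, 12.4, 17.6, 5.28 and 17.8 CPM in IF16. AL replicates 4 and 5 were its highest libraries, and the log2 fold change was -1.80 (SE 0.36, edgeR adjusted p = 0.0131). Without those 2 libraries it was -1.40 and did not pass (adjusted p = 0.0613), and the number of the 9 genes that fell was 5, with Mvk lost as well.

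**Figure D2:**
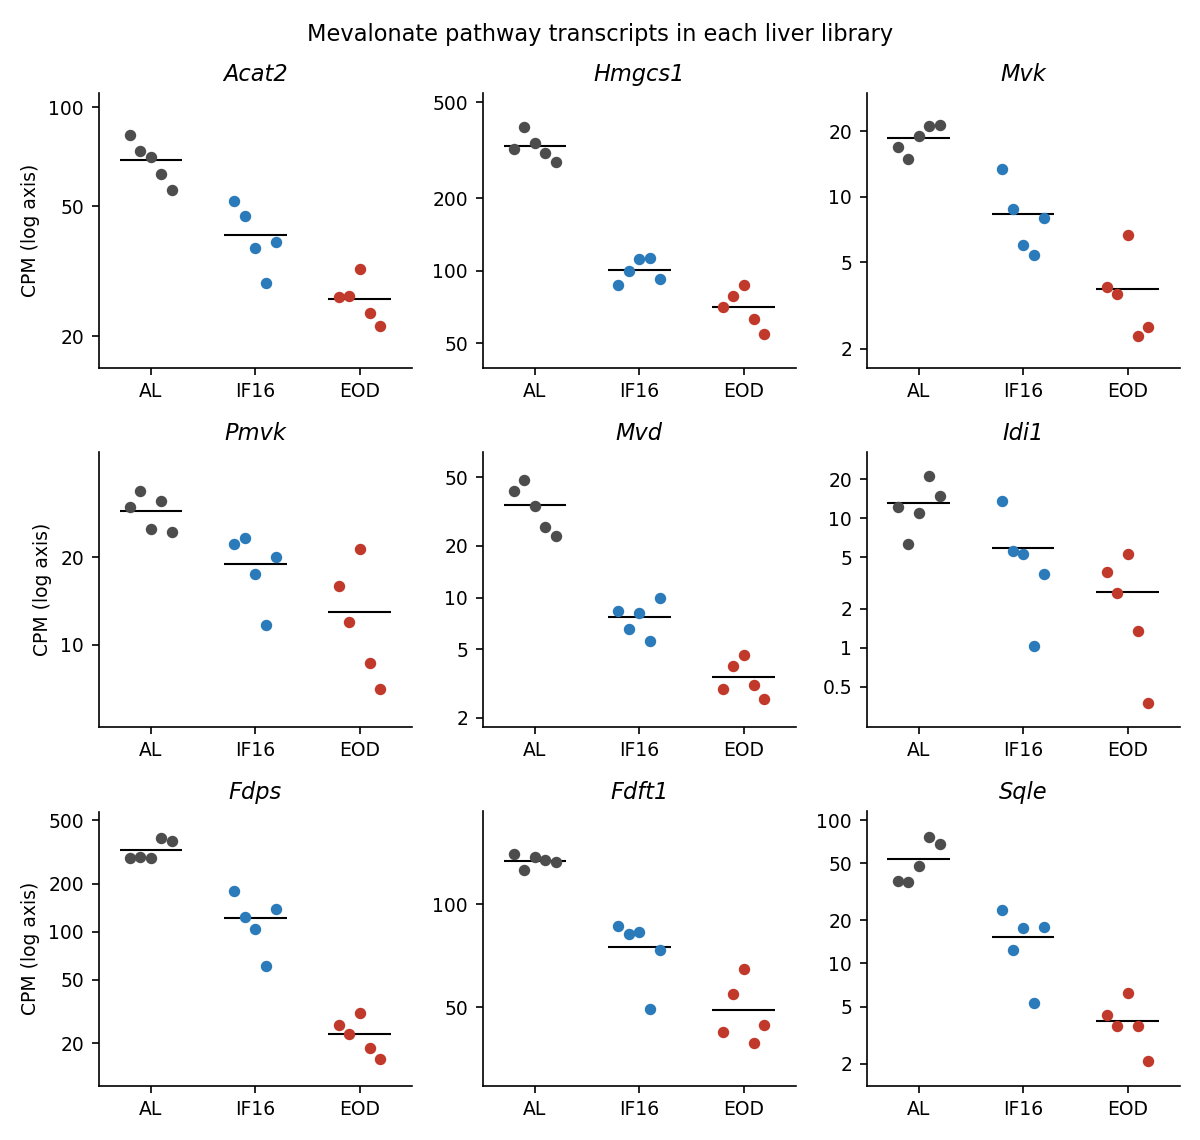
Each panel shows 1 gene, each point 1 library (replicates 1 to 5 from left to right) and each line the mean of the 5 libraries of a group, as TMM-scaled CPM on a log axis that differs between panels. In every panel the mean falls from AL to IF16 to EOD. For Idi1, IF16 replicate 1 (13.7 CPM) lies among the AL libraries (6.35 to 21.0 CPM).

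The second comparison asked how every-other-day fasting changed them. All 9 fell, with Fdps, Sqle and Mvd down by 10.01 to 14.3 fold and Acat2, Fdft1 and Pmvk by 2.23 to 2.74 fold. Here 35.2% of all genes tested passed, 17.6% in each direction, so a call is far less rare than under IF16. The median log2 fold change was -2.27 over the 9 genes and -0.01 over all genes tested. In all 9, every EOD library lay below every AL library, against 10.2% of all genes tested, and 8.46% had every EOD library above. The AL libraries are the same as in the first comparison, so the 2 sets of changes are not independent.

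Fdps was at 26.2, 23.0, 31.1, 18.6 and 15.9 CPM in EOD, where AL had 291 to 388 CPM. The log2 fold change of -3.84 (SE 0.26, edgeR adjusted p = 7.31e-08) is a decrease of 14.3 fold. Sqle was at 4.34, 3.64, 6.18, 3.65 and 2.10 CPM in EOD, a decrease of 13.4 fold (log2 SE 0.39, edgeR adjusted p = 1.20e-05). Mvd was at 2.94, 3.99, 4.62, 3.08 and 2.57 CPM, a decrease of 10.01 fold (log2 SE 0.23, edgeR adjusted p = 6.15e-08). In each of these 3 genes the EOD libraries lay far below all AL libraries.

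Hmgcs1 was at 70.6, 78.7, 87.3, 62.9 and 54.7 CPM in EOD, a decrease of 4.64 fold (log2 SE 0.13, edgeR adjusted p = 9.83e-09). Mvk was at 3.85, 3.58, 6.68, 2.29 and 2.51 CPM, a decrease of 4.97 fold (log2 SE 0.28, edgeR adjusted p = 2.28e-05). EOD replicate 3 was the highest EOD library in both. Idi1 was at 3.87, 2.64, 5.30, 1.36 and 0.376 CPM, the last from 12 counts, where 3 counts in a library correspond to 0.0780 to 0.107 CPM. Its decrease of 4.82 fold passed (log2 SE 0.65, edgeR adjusted p = 0.0157), and without AL replicates 4 and 5 it did not (log2 fold change -1.83, adjusted p = 0.0750).

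The 3 smallest decreases were those of Acat2, at 21.5 to 32.0 CPM (2.66 fold, log2 SE 0.15, edgeR adjusted p = 4.25e-06), Fdft1, at 39.2 to 64.6 CPM (2.74 fold, log2 SE 0.15, adjusted p = 3.25e-06), and Pmvk, at 7.05 to 21.3 CPM (2.23 fold, log2 SE 0.25, adjusted p = 0.00264).

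**Figure D3:**
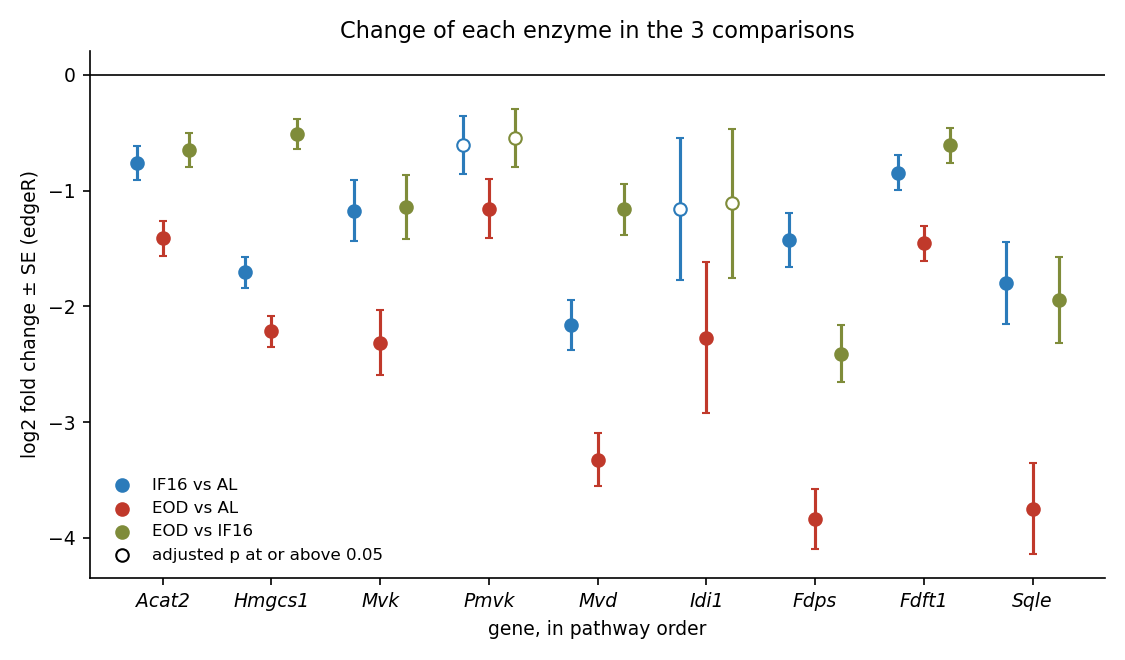
For each of the 9 genes in pathway order (x axis), points give the log2 fold change of the edgeR fit and bars its SE (y axis) for the 3 comparisons named in the key; open points did not pass at an adjusted p of 0.05. Every point is below 0, and EOD vs AL runs from -3.84 (Fdps) to -1.16 (Pmvk).

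The third comparison asked whether the 2 regimens differed. 7 of the 9 transcripts were lower in EOD than in IF16, none was higher, and Pmvk and Idi1 did not pass, where 16.1% of all genes tested passed, 8.15% as lower and 7.96% as higher. The median log2 fold change was -1.11 over the 9 genes and -0.003 over all genes tested. Only Mvd and Fdps had every EOD library below every IF16 library, 2 of 9 against 6.26% of all genes tested (4.63% had every EOD library above). In the other 7 the groups overlapped.

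The size of this step varied along the pathway. Fdps was lower in EOD by 5.31 fold (log2 SE 0.24, edgeR adjusted p = 1.77e-05), with 15.9 to 31.1 CPM against 61.0 to 180 CPM. Sqle was lower by 3.85 fold (log2 SE 0.37, edgeR adjusted p = 0.00349), with its highest EOD library, at 6.18 CPM, above IF16 replicate 4, at 5.28 CPM. Mvd and Mvk were lower by 2.24 fold (log2 SE 0.22, edgeR adjusted p = 0.00224) and 2.20 fold (log2 SE 0.28, adjusted p = 0.0116). Acat2, Fdft1 and Hmgcs1 were lower by 1.57 fold (edgeR adjusted p = 0.00730), 1.53 fold (adjusted p = 0.0104) and 1.42 fold (adjusted p = 0.0127). Hmgcs1, which had fallen 3.26 fold under IF16, had the smallest step of the 7 from IF16 to EOD. Both values rest on the same IF16 libraries, so they are not independent. Idi1 and Pmvk had log2 fold changes of -1.11 (SE 0.64, edgeR adjusted p = 0.262) and -0.55 (SE 0.25, adjusted p = 0.149). Without IF16 replicate 1, Idi1 was at -0.50 (edgeR adjusted p = 0.621). Without EOD replicate 3, Pmvk was at -0.78 and passed (adjusted p = 0.0350). Whether the step differed between genes was not tested.

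Within IF16 and EOD, the same libraries were highest or lowest at most of the 9 genes, and within AL they were not. IF16 replicate 4 was the lowest of its group in 8 of the 9 genes and the highest in Hmgcs1, where it had 113 CPM. IF16 replicate 1 was the highest in 6 genes (Acat2, Mvk, Idi1, Fdps, Fdft1 and Sqle) and the lowest in Hmgcs1, at 86.9 CPM. Hmgcs1 supplied 26.6% of the summed FPKM of the 9 genes in IF16 replicate 4 and 10.2% in IF16 replicate 1. In EOD, replicate 3 was the highest in all 9 genes, and replicate 5, the library with the highest mitochondrial share of EOD, was the lowest in 7 of them; Mvk and Fdft1 were lowest in replicate 4. In AL, replicate 2 was highest in Hmgcs1, Pmvk and Mvd and lowest in Mvk, Idi1, Fdft1 and Sqle. AL replicate 4 was highest in Idi1, Fdps and Sqle, and AL replicate 5 was highest in Mvk and lowest in Acat2, Hmgcs1, Pmvk and Mvd. How often each library was highest or lowest over all genes tested was not counted. EOD replicates 3 and 5 had the lowest and highest TMM factors of the 15 libraries (0.951 and 1.07). In IF16 the factor was 1.06 for replicate 1, the highest in 6 genes, and 0.983 for replicate 4, the lowest in 8. Whether shifts of whole libraries have a part in these ranks was not tested.

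**Figure D4:**
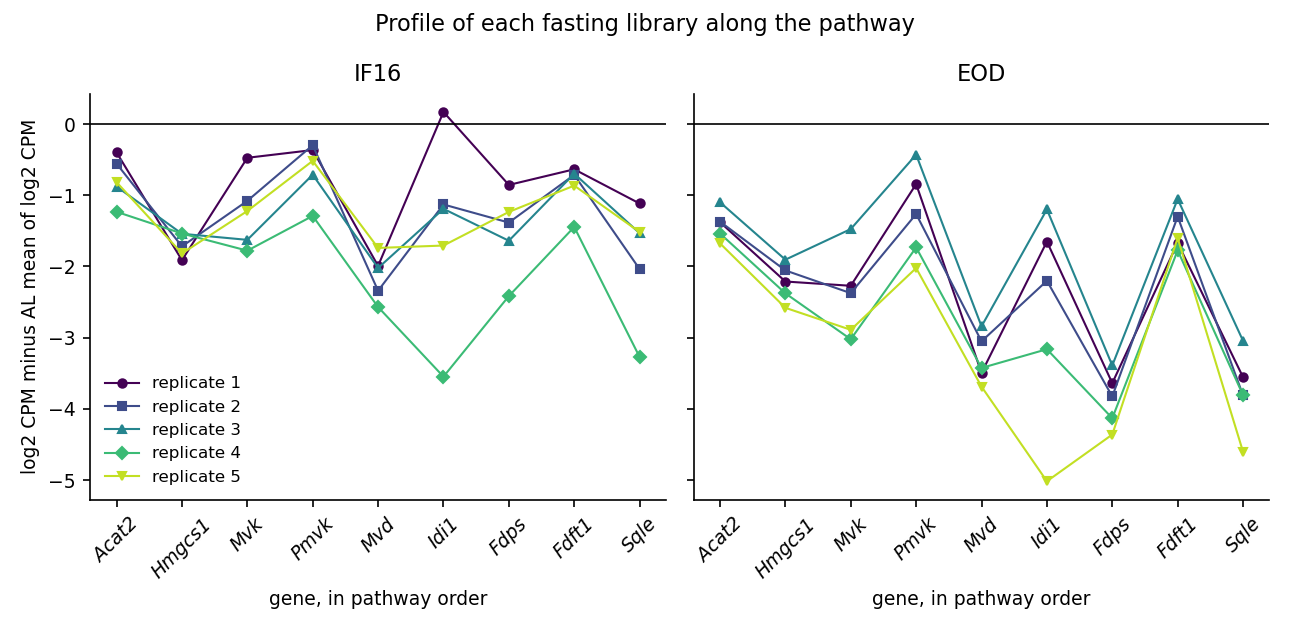
Lines give the 5 libraries of IF16 (left) and EOD (right) over the 9 genes in pathway order (x axis), as log2 CPM minus the AL mean of log2 CPM (y axis). The line of IF16 replicate 4 is lowest at every gene but Hmgcs1, where the 5 IF16 lines lie close together, and the line of EOD replicate 3 is highest at every gene.

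Genomic neighbours were examined next, taking each gene that overlaps any of the 9 or lies within 1 kb. Mmab, which encodes an adenosyltransferase of vitamin B12, is transcribed away from Mvk (chromosome 5, 114431034 to 114444059, minus strand, mm10). The RefSeq start sites of the pair lie 242 bases apart, and their promoter windows share 259 of 300 bases, so that the 5 CCAAT copies of the Mvk sequence above are in the window of Mmab as well. Mmab fell from 30.3 CPM (SD 3.09, n = 5) in AL to 15.9 CPM (SD 3.15) in IF16 and 7.96 CPM (SD 1.44) in EOD. Its log2 fold changes were -0.93 (SE 0.14, edgeR adjusted p = 0.00155) and -1.93 (SE 0.15, adjusted p = 1.31e-07), beside -1.17 and -2.31 for Mvk.

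The other neighbours tested had mean levels in EOD within 1.48 fold of AL. Rusc1, which lies 228 bases beyond the end of Fdps on the same strand, was at 7.31 CPM in AL, 7.64 in IF16 and 7.31 in EOD, with adjusted p of 0.881 and 0.996 against AL in edgeR. Cyba, an NADPH oxidase subunit 655 bases beyond Mvd, rose 1.48 fold in EOD (edgeR adjusted p = 0.0387). E430025E21Rik, 805 bases beyond Sqle, fell 1.24 fold in EOD (edgeR adjusted p = 0.0245). Ctsb, the cathepsin B gene, runs tail to tail with Fdft1 and overlaps it by 767 bases. It had 584 CPM in AL, 543 in IF16 and 554 in EOD (edgeR adjusted p = 0.571 and 0.526 against AL), several times the level of Fdft1. The strand setting of the counting is not given in the sources at hand, so some counts of Fdft1 could stem from Ctsb. Gm20388, a gene model that spans Mvd, had no count.

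Close copies are a second limit of the counts. A GENCODE M21 transcript of Acat3, a neighbouring thiolase gene, is 97.7% identical to Acat2 over 1477 bases, and Tcp1, a chaperonin subunit gene, matches Acat2 on the opposite strand over 445 bases. Acat3 was at 103 CPM in AL, 105 in IF16 and 94.4 in EOD and did not pass (edgeR adjusted p = 0.943 and 0.264 against AL), while Acat2 fell in both comparisons. Reads that could belong to either may have been dropped or split, so the level of Acat2 is uncertain. Pseudogene copies of Fdps, Fdft1 and Idi1 that are in the count table had means of at most 41.4 counts in any group, against 9996, 4118 and 399 counts for the genes themselves in AL. A transcript of Gm13502 is 100% identical to Idi1 over 684 bases, and one of Gm43738 is 100% identical to Fdps over 929 bases. Low counts of the copies do not show whether shared reads were dropped, so the levels of Fdps, Fdft1 and Idi1 are uncertain as well. On the opposite strand, a transcript of Gm48342 is 100% identical to Hmgcs1 over 462 bases. Another, of Gm48574, is 100% identical to Idi1 over 323 bases. Because the strand setting is not given, some counts of Hmgcs1 and Idi1 could stem from these transcripts.

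None of the tested relatives of the early enzymes passed as lower in either regimen against AL. Of 8 listed genes, 7 were tested, none passed in IF16 against AL in edgeR (median log2 fold change 0.24), and 4 rose and none fell in EOD against AL, where 17.6% of all genes tested rose. Acat1, the mitochondrial thiolase, had 294 CPM in AL, 377 in IF16 and 548 in EOD and rose 1.87 fold in EOD (edgeR adjusted p = 6.16e-04). Acaa1a, a peroxisomal thiolase, rose 1.15 fold (adjusted p = 0.0495). Acat3, Acaa1b and Acaa2 did not pass in EOD (edgeR adjusted p = 0.264, 0.383 and 0.137), and Idi2, a second isomerase gene, had too few counts to be tested.

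Many genes upstream and downstream of the 9 also fell. Of 4 genes of cytosolic acetyl-CoA supply, none passed in IF16 (log2 fold changes from -0.94 to -0.37) and all 4 fell in EOD, beside 2.1% and 17.6% of all genes tested that fell in these comparisons. Acly, which cleaves citrate to acetyl-CoA, had a log2 fold change of -2.54 in EOD (SE 0.28, edgeR adjusted p = 1.15e-05), and Slc25a1, the mitochondrial citrate carrier, of -1.01 (SE 0.12, adjusted p = 8.27e-06). Acss2, which makes acetyl-CoA from acetate, and Me1, the malic enzyme, fell 5.02 fold (edgeR adjusted p = 1.29e-06) and 2.47 fold (adjusted p = 0.0173). Of 10 genes that carry squalene epoxide on to cholesterol, 6 fell in IF16 and 8 in EOD, against the same 2.1% and 17.6%, with median log2 fold changes of -0.93 and -1.99. Nsdhl, a sterol dehydrogenase, fell 1.99 fold in IF16 (edgeR adjusted p = 0.0180) and 10.2 fold in EOD (adjusted p = 1.31e-07), and Sc5d, a sterol desaturase, 1.75 fold (adjusted p = 0.0132) and 3.11 fold (adjusted p = 3.92e-06). Tm7sf2, a sterol reductase named here after its values were seen, passed in neither comparison, at a log2 fold change of -0.11 in EOD (SE 0.16, edgeR adjusted p = 0.646).

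Of 20 genes of the branches that draw on isoprenoid diphosphates for other products, none passed in IF16 against AL (edgeR, median log2 fold change -0.03), and 7 fell and 4 rose in EOD (median 0.11), beside 17.6% of all genes tested in each direction, so that the number that rose is near the background. Dhdds, a subunit of the dolichol-forming prenyltransferase, fell 1.55 fold in EOD (edgeR adjusted p = 8.05e-04) and Fntb, the beta subunit of protein farnesyltransferase, 1.85 fold (adjusted p = 0.00158), while Fnta, its alpha subunit, rose 1.41 fold (adjusted p = 0.00576). Of the subunits of the Rab prenyl transferase, Rabggta fell 1.79 fold (edgeR adjusted p = 4.74e-05) and Rabggtb rose 1.56 fold (adjusted p = 1.49e-05). Trit1, which modifies tRNA with an isopentenyl group, and Rce1, a protease of prenylated proteins, rose 1.30 fold (edgeR adjusted p = 0.00605) and 1.31 fold (adjusted p = 0.00706). Dolpp1, a dolichol diphosphate phosphatase, had the largest p of the list (log2 fold change 0.04, edgeR adjusted p = 0.822).

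Of 6 genes of sterol sensing, 2 fell in IF16, where 2.1% of all genes tested fell, and 2 fell and 1 rose in EOD, where 17.6% of all genes tested passed in each direction. The 1 of 6 that rose is near that share. Srebf2, which encodes SREBP2, fell 1.48 fold in IF16 (edgeR adjusted p = 0.0139) and 1.70 fold in EOD (adjusted p = 1.64e-04), from 36.7 CPM to 24.8 and 21.6 CPM. Insig1, which retains the SREBP complex in the endoplasmic reticulum and is itself an SREBP target, fell 2.08 fold (edgeR adjusted p = 0.0251) and 3.09 fold (adjusted p = 1.70e-04). Insig2, the second retention protein, did not pass in IF16 (adjusted p = 0.621) and rose 3.04 fold in EOD (edgeR adjusted p = 6.54e-04), from 85.7 to 261 CPM. Scap, the SREBP escort protein, and the processing proteases Mbtps1 and Mbtps2 did not pass in any comparison in edgeR, with log2 fold changes between -0.19 and 0.04.

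**Figure D5:**
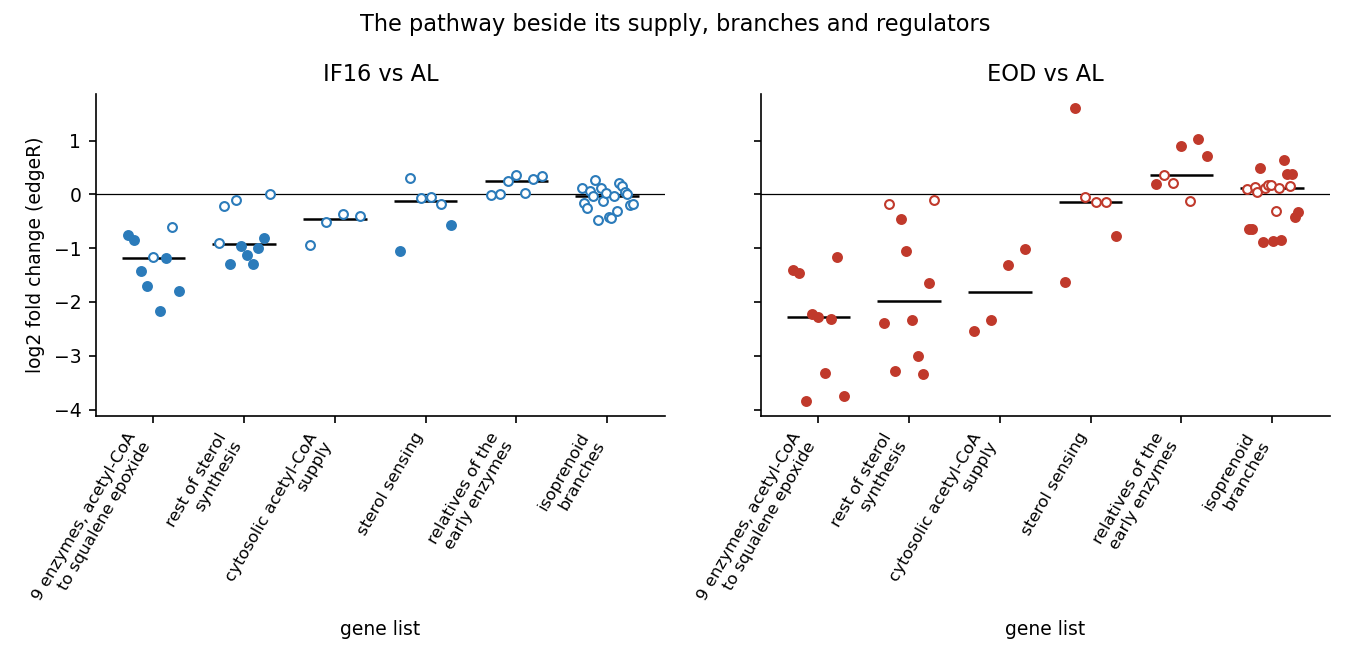
Points give the log2 fold change of each tested gene (y axis) in 6 gene lists (x axis) for IF16 vs AL (left) and EOD vs AL (right); filled points passed at an adjusted p of 0.05 in edgeR and lines are list medians. The medians of the 9 enzymes are -1.17 and -2.27, and those of the relatives of the early enzymes 0.24 and 0.35.

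The genes whose profile over the 15 libraries was most like the mean of the 9 were sought among the protein-coding genes tested, by the root-mean-square difference of log2 CPM centred on the AL mean. The 10 closest were Cyp51, Dpy19l3, Lss, Acly, Msmo1, Sgsm1, Stard4, Rdh11, Smpd3 and Mid1ip1, at differences of 0.30 to 0.48 on the log2 scale. The 9 genes themselves lay between 0.22 (Mvk) and 0.86 (Sqle) from their own mean. Dpy19l3, a protein mannosyltransferase, had log2 fold changes of -1.15 in IF16 and -2.60 in EOD against AL. Stard4, a carrier of cholesterol, had -0.99 and -1.87, and Mid1ip1, a regulator of acetyl-CoA carboxylase, -1.03 and -3.01. With log2 of FPKM plus 1 in place of log2 CPM, 5 of the 10 were again among the 10 closest.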

How the data were processed

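Liver RNA was measured in 15 libraries, 5 each of AL, IF16 and EOD, grouped by the titles in the labels. The deposited counts are untransformed whole numbers for each Ensembl gene, and the deposited FPKM are those counts scaled by gene length and library total. STAR 2.5, HTSeq 0.6.1, DESeq2 and build mm10 are named, without a role, in the submitters' processing notes. The count analysis used edgeR 4.0.16 under R 4.3.3. Of 35275 genes, 13837 passed filterByExpr (minimum count 10), libraries were scaled by TMM, all 15 shared 1 model of group means, and edgeR's quasi-likelihood F test was run for the 3 pairs of groups, with Benjamini-Hochberg adjustment over all genes tested at 0.05. An SE is the size of a log2 fold change over the root of its F. The edgeR procedure was also run on simulated counts, for EOD against AL only. The simulated libraries were independent and lacked the differences between libraries of a group seen here, so that run does not bear on them. Alternatives used DESeq2 1.42.0 and limma 3.58.1 (log2 of FPKM plus 1 or 0.1).

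No library was a copy of another: over the 30 pairs within groups, chi-square over its degrees of freedom was 24.9 to 219. The members and lists were chosen with earlier results of these data known. The text names all 9 members, from each list up to 4 genes with the smallest p in EOD against AL, those that rose and the 1 with the largest p (all genes of lists of up to 8), neighbours within 1 kb and the 10 genes of like profile. Some genes that this rule names are not reported here. Transcripts 95% or more identical over at least 200 bases were sought with BLAST in GENCODE M21.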

Additional observations from a re-analysis of the deposited data

Results flagged for a closer look

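Of 27 groups of 5 libraries (9 genes in 3 groups), 1 had a library that stood apart from the other 4 by Dixon's ratio on log2 CPM: Fdft1 in IF16, where replicate 4 was at 49.3 CPM and the other libraries at 73.7 to 86.3 CPM. Chance marks about 1 in 20 groups in this way. Without IF16 replicate 4 the log2 fold change of Fdft1 against AL was -0.74 (edgeR adjusted p = 0.00524), beside -0.84 with it.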

How the results depend on the processing

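The 9 genes kept a negative log2 fold change in all 3 comparisons under all 25 alternatives tried. Of 675 values, 668 stayed on their side of the threshold, 6 lost the call (Mvk 4 times and Sqle once in IF16 against AL, Idi1 once in EOD against AL) and 1 gained it (Pmvk in EOD against IF16). The number of the 9 that fell was 5 to 7 in IF16 against AL, 8 or 9 in EOD against AL and 7 or 8 in EOD against IF16. Without AL replicates 4 and 5, an alternative chosen after the data were seen, these numbers were 5, 8 and 7. On log2(FPKM + 1), where the added 1 shrinks changes of low values, the log2 fold change in EOD against AL was -1.51 for Idi1 and -2.75 for Sqle, and that of Sqle in EOD against IF16 was -1.17. Over all genes, 484 differed between IF16 and AL, 939 by the DESeq2 Wald test and 261 by limma on log2(FPKM + 1) with no minimum. When single libraries were left out this number ran from 241 (without IF16 replicate 3) to 619 (without EOD replicate 5), with 269 and 254 without IF16 replicates 2 and 5. Between EOD and IF16, 2229 genes differed, and 1418 (without IF16 replicate 5) to 3383 (without EOD replicate 5) when single libraries were left out, with 1460 without EOD replicate 1. The cause was not tested. The labels number the replicates alike in the 3 groups but do not say that the numbers pair the libraries. Same-numbered libraries correlated at -0.13 to 0.22 in their deviations from the group means, over 0.1 in 5 of 15 pairs. In 3 of the 15 the same number was the best match. Such weak correlations cannot decide whether the libraries are paired. With the replicate number as a block, 492, 4809 and 2226 genes differed in the 3 comparisons, beside 484, 4867 and 2229 without it, and no call of the 9 genes changed. On log2(FPKM + 1), 5 of the 10 genes of like profile were again among the closest 10. Depth limits Idi1, which had 12 counts in EOD replicate 5, more than the other 8 genes.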
